A study of Mus musculus with 43 samples.

Results

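The 10 macrophage genes Cd68, Adgre1, Csf1r, Cd14, C1qa, C1qb, C1qc, Lyz2, Mrc1 and Tyrobp were followed in mouse testis, 10 genes of 55401 in the expression tables. They were chosen by their values in the sorted-cell libraries, as genes of macrophages seen in Prmt1-deficient sorted cells and not in control sorted cells, so their difference between those libraries is described and not tested. With at most 1 count in each control library and at least 10 in each Prmt1-deficient one, that description held for 8 of the 10, and for 7 with no control count at all, Tyrobp having 1. Adgre1 had no count in any of the 4 sorted-cell libraries, and Cd14 was present in 1 library of each genotype.

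The RNA data came from testes at postnatal day 7 (P7). Bulk RNA-seq measured whole testis in 3 WT and 3 Prmt1-dKO libraries, and mini-bulk Smart-seq2 measured EGFP+ spermatogonia taken by fluorescence-activated sorting in 2 WT and 2 Prmt1-dKO libraries. Peak lists from CUT&Tag, 17 at P7 and 16 at P14, covered 7 histone marks in WT C57BL/6J germ cells. H4R3me2s was also profiled in Prmt1-dKO cells at P7. The CUT&Tag cells were not sorted on EGFP but came from digested tubules passed through a strainer to remove Sertoli cells. Prmt1 is the main type I protein arginine methyltransferase, an enzyme that lays down asymmetric dimethylarginine such as H4R3me2a.

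In the dKO mice, Prmt1 carried loxP sites around part of the gene and was deleted by Ddx4-CreERT2 after tamoxifen on 3 consecutive days. The study does not say separately whether the WT animals of these libraries received tamoxifen. If they did not, genotype and tamoxifen cannot be told apart in the comparisons below. The Ddx4 promoter, which is active in germ cells, drives both CreERT2 and EGFP. The sorted control libraries are labelled WT, whereas the methods of the study name heterozygous Ddx4-GFP-CreERT2 Prmt1 +/lox animals as the EGFP+ controls, so these controls may carry the transgene and 1 floxed allele. Macrophages do not use the Ddx4 promoter, and before sorting the tubules were rinsed to remove cells of the interstitium. The labels call the bulk samples spermatogonia, but their protocol describes RNA of total testis. For P14 the titles say spermatogonia and another label says spermatocyte.

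Macrophages are the commonest immune cells of the testis. They lie between the Leydig cells of the interstitium and on the surface of the tubules, depend on signals through the receptor Csf1r, clear dead cells and debris, and hold back immune responses to germ cells. C1q, which their C1q genes encode, is the recognition part of the classical complement pathway and binds immune complexes and dying cells.

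The labels were checked first. In CPM, counts scaled to a common library total, sorted cells held 225 and 160 of Prmt1 in WT and 103 and 83.7 in dKO. In whole testis Prmt1 ranged from 215 to 242 CPM in WT and from 150 to 201 in dKO, at a log2 fold change of -0.49 ± 0.13 (SE, edgeR adjusted p = 0.0334). Ddx4, the germ cell gene whose promoter drives Cre and EGFP, was lower in dKO testis as well, at -0.67 ± 0.16 (adjusted p = 0.0184), short of 2-fold. All 14 genes of the germ cell list were counted in sorted cells of both genotypes, and their summed level there was 2350 to 2980 CPM. The sorted libraries were of similar depth, 15610392 to 18547103 counts, but WT libraries held counts for 17106 and 15587 genes and dKO libraries for 21404 and 20194. An absent gene is therefore read against that gap below.

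Promoter DNA of members is shown here because the members were counted together in sorted dKO cells. RefSeq promoter windows were held for 5 members, Cd68, C1qb, C1qc, Lyz2 and Mrc1. The 3 windows below are the 250 bases before the RefSeq gene start on GRCm38.p6, 5′ to 3′ on the gene's strand: C1qb at chr4:136886201-136886450 (minus strand), Cd68 at chr11:69666171-69666420 (minus) and Mrc1 at chr2:14229164-14229413 (plus). Capitals mark GAGGAA or its reverse complement, the core letters of sites bound by PU.1, the ETS factor of the myeloid lineage.
C1qb: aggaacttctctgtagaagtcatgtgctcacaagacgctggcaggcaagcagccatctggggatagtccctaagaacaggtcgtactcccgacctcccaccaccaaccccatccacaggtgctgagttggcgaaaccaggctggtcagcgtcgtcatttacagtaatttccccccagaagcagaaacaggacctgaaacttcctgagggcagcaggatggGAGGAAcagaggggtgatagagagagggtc
Cd68: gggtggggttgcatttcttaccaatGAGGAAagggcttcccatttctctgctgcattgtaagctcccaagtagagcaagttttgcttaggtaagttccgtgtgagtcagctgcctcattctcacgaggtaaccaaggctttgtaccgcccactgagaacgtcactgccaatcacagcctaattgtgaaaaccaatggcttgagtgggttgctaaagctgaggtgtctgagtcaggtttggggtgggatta
Mrc1: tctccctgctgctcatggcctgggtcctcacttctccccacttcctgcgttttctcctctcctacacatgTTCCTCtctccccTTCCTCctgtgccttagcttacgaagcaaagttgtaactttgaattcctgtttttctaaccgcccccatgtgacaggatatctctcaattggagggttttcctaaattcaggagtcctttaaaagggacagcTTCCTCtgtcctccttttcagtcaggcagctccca

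The letters GAGGAA, on either strand, stood in 4 of the 5 windows and in 23.3% of 32851 RefSeq windows of the same length. Counted from the RefSeq starts, they lay 30 to 25 bases before C1qb, 193 to 188 before C1qc, 225 to 220 before Cd68, and at 3 places before Mrc1, the nearest 35 to 30 bases away. The GENCODE starts used elsewhere differ from these: 151 bases of the C1qc window, 49 of the Lyz2 window and 22 of the Mrc1 window lie inside the GENCODE gene, and C1qc and Lyz2 are not printed. The longer GAGGAAGT, which contains GAGGAA, stood in the C1qc window alone and in 2.44% of all windows. The Lyz2 window had neither. These matches describe letters and not bound sites.

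The C1q chain genes lie side by side on the minus strand of chromosome 4, C1qb at 136880129-136886187, C1qc at 136889804-136893065 and C1qa at 136895917-136898803 (GENCODE vM21, mm10). Their 3 proteins assemble in equal numbers into the C1q molecule. In sorted cells, C1qb had 0 and 0 counts in WT and 247 and 248 in dKO. C1qc had 0 and 0 in WT and 201 and 98 in dKO. C1qa had 0 and 0 in WT and 37 and 42 in dKO. Set against a floor of 3 counts over the 2 WT libraries, sorted dKO cells held at least 184-fold more C1qb, at least 111-fold more C1qc and at least 29.4-fold more C1qa.

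In whole testis the 3 chains stood at like levels. In TPM, an abundance scaled to transcript length and library total, WT testis had 24.2 ± 3.92 of C1qa, 25.6 ± 4.25 of C1qb and 22.8 ± 3.71 of C1qc (SD, n = 3), which do not differ beyond their spread. The ratio of C1qa to C1qb in TPM was 0.862 to 1.03 over the WT testes and 0.787 to 0.988 over the dKO testes. In the sorted dKO libraries it was 0.159 and 0.179. C1qa made up 8.47% and 11.7% of the summed TPM of the chains there, against 30.8% to 35.3% over the 6 whole testes. Their longest annotated transcripts are 1040, 1088 and 1203 bases for C1qa, C1qb and C1qc, and whether the PCR cycles and oligo-dT priming of Smart-seq2 had a part in the uneven chains was not tested.

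**Figure D1:**
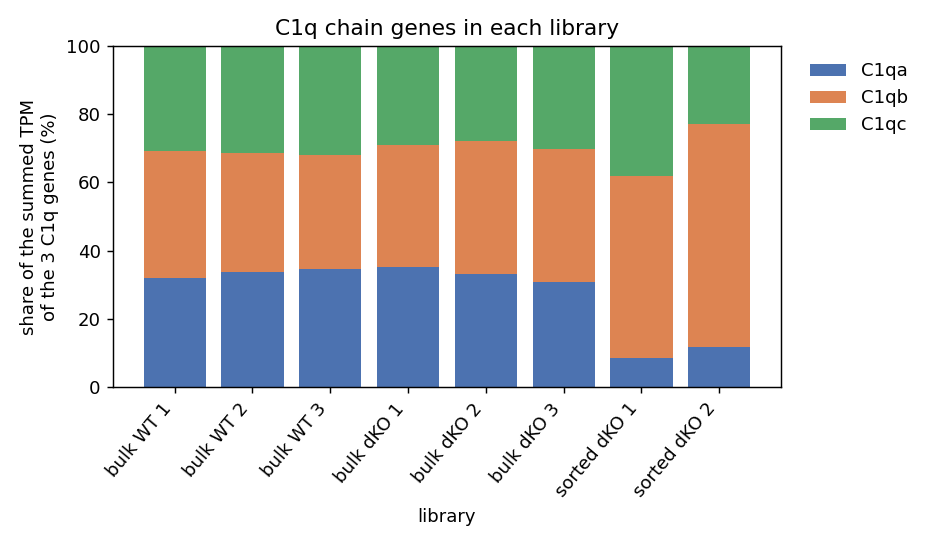
Share of C1qa, C1qb and C1qc in the sum of their TPM (vertical axis, percent) in each whole-testis library and each sorted dKO library (horizontal axis). C1qa holds 30.8% to 35.3% in the 6 whole testes and 8.47% and 11.7% in the sorted dKO libraries; the sorted WT libraries had no count of any chain.

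Among the surface receptors, Csf1r, the receptor for CSF1 and IL-34 on which macrophages depend, had 0 and 0 counts in sorted WT cells and 96 and 125 in sorted dKO cells. That is at least 82.2-fold higher. Mrc1, the mannose receptor CD206 of resident tissue macrophages, had 0 and 0 in WT and 12 and 38 in dKO, at least 18.6-fold higher. Both genotypes lacked Adgre1 in sorted cells, the gene of the classical mouse macrophage antigen F4/80. Its 3 counts over the dKO group would be 0.0921 CPM, so sorted dKO cells held at least 46.6-fold less Adgre1 than whole dKO testis, which had 67, 59 and 52 counts.

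Cd14, the co-receptor for bacterial lipopolysaccharide, did not follow the genotype in sorted cells. One WT library counted it 111 times and the other not at all, and the dKO libraries counted 90 and 0. The libraries overlap completely, and 111 of the 112 counts of members in sorted WT cells came from Cd14 in 1 library. The remaining count was of Tyrobp.

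Tyrobp encodes DAP12, the adaptor through which TREM2 and related receptors signal. It had 1 and 0 counts in sorted WT cells and 80 and 84 in sorted dKO cells. Cd68, a lysosomal glycoprotein used to stain macrophages, had 0 and 0 in WT and 83 in each dKO library, at least 61.7-fold higher. Lyz2, the lysozyme of myeloid cells, had 0 and 0 in WT and 385 and 260 in dKO, at least 240-fold higher. Its paralogue Lyz1, which shares much of its sequence, had no count in the sorted libraries and at most 1 in a whole testis, so few reads were split to it. Floors cover counting error only, since PCR copies are not independent molecules. They do not cover the spread between sorted replicates, as with Cd14 at 111 and 0 counts in WT.

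**Figure D2:**
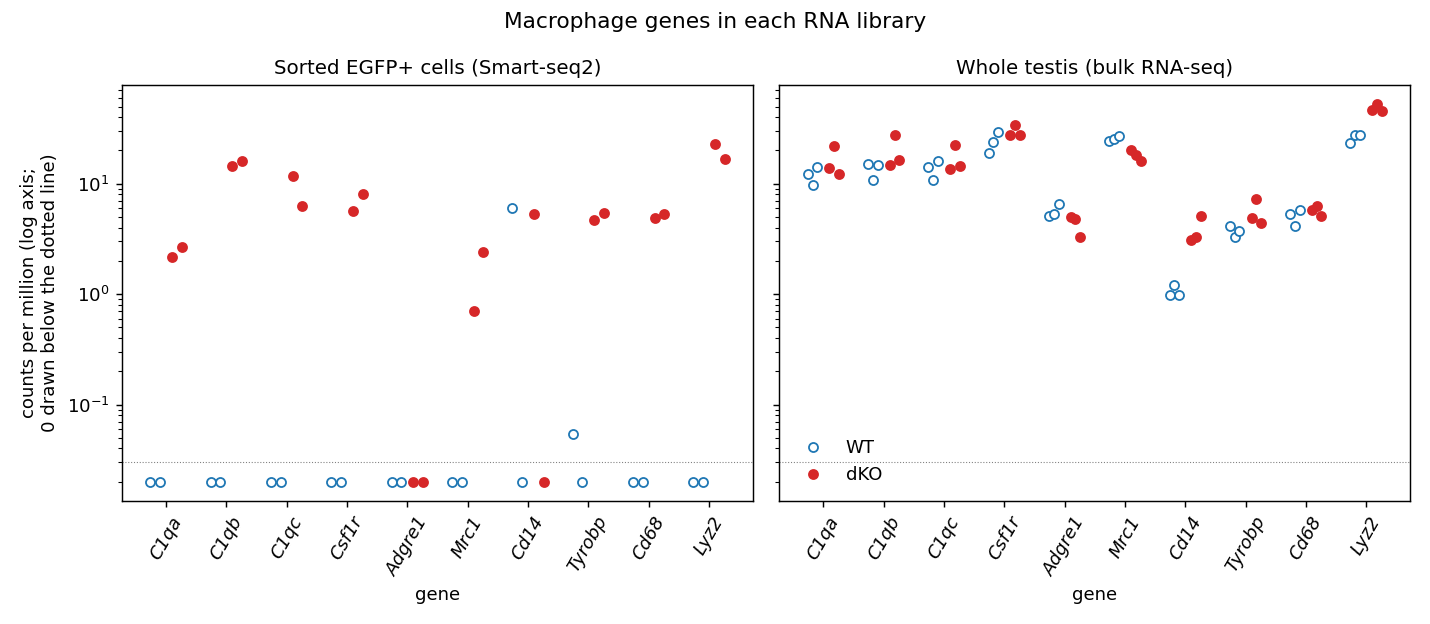
CPM from library totals (vertical axis, log scale, zeros drawn below the dotted line) of the 10 genes in each sorted-cell library (left) and each whole testis (right), WT open and dKO filled. In sorted cells 8 genes are at 0 or 1 count in WT and at 12 counts or more in dKO, Adgre1 is at 0 throughout, and Cd14 is present in 1 library of each genotype.

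The 8 genes with at most 1 count in each WT and at least 10 in each dKO sorted library belong to a larger class. Of the 16554 genes tested in whole testis, 981 or 5.93% met the same description, and 15 or 0.0906% met the reverse one. Without WT replicate 1 the share was 12.7% and without WT replicate 2 it was 9.1%, while the count of members stayed at 8. Because the members were chosen on this contrast, nothing is read from their count. In a test of all 16443 genes kept in sorted cells, edgeR called 0 genes (0%) at an adjusted p below 0.05 and at least 2-fold, against 2267 higher and 678 lower at an unadjusted p under 0.05 and at least 2-fold, and DESeq2 called 1879. Without WT replicate 1 edgeR called 7436 genes, and without WT replicate 2 it called 6118.

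The sorted dKO cells did not hold the members in the proportions of the whole dKO testis. In CPM, Tyrobp in sorted dKO cells was at 92.4% of whole dKO testis, Cd68 at 89.1% and C1qb at 78.7%. Cd14 was at 70.3%, from 1 library alone (0 and 1.38 times the testis mean). C1qc was at 55.6%, Lyz2 at 41.4%, Csf1r at 22.8%, C1qa at 15.4% and Mrc1 at 8.52%, and Adgre1 had no count. The libraries of Tyrobp (0.849 to 0.969 times the testis mean) and Cd68 (0.849 to 0.923) overlapped, and those of C1qb (0.741 to 0.808) lay just below. Those of Csf1r (0.189 to 0.267) and Mrc1 (0.039 to 0.134) lay far below them and did not overlap each other. The longest transcripts of the best represented genes were short, 597 bases for Tyrobp, 1230 for Cd68 and 1088 for C1qb. Those of Csf1r, Mrc1 and Adgre1 were long, 4701, 5374 and 3238 bases, and C1qa at 1040 bases did not follow that order. The part of transcript length was not tested.

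By level per length, the order also changed. In WT whole testis, Lyz2 stood first at 39 ± 3.19 TPM (SD, n = 3), followed by the C1q chains and Tyrobp at 19.1 ± 1.95. Csf1r at 9.37 ± 1.14, Cd68 at 8.96 ± 1.13 and Mrc1 at 8.27 ± 0.219 came next and did not differ beyond their spread. Adgre1 at 2.98 ± 0.317 and Cd14 at 1.27 ± 0.279 were lowest. In dKO whole testis Lyz2 was also first, at 61.7 ± 2.49, but Cd14 at 4.11 ± 1.55 stood above Adgre1 at 1.99 ± 0.457. In sorted dKO cells, Lyz2 at 20.3 ± 3.71 TPM, C1qb at 19.9 ± 1.85 and Tyrobp at 15.8 ± 1.99 led (SD, n = 2), with C1qc at 10.4 ± 4.19 and Cd68 at 6.55 ± 0.785 behind them. C1qa stood at 3.37 ± 0.594, Cd14 at 2.23 ± 3.15, Csf1r at 1.74 ± 0.495, Mrc1 at 0.35 ± 0.283 and Adgre1 at 0, and the spread of Cd14, present in 1 library, covered its neighbours.

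Summed over the 10 genes, sorted dKO cells held 72.5 and 62.6 CPM, or 40.2% of the mean of whole dKO testis. Sorted WT cells held 6.04 and 0 CPM, or 2.31% of WT testis, and 0.0208% without Cd14. The other cell types that a testis holds were measured in the same libraries. Leydig cell genes in sorted dKO cells summed to 5.56% of whole dKO testis and in WT to 3.12% (24.2 to 27.1 and 21.6 to 26.3 CPM). The steroidogenic enzymes Cyp11a1 and Cyp17a1, the receptor Lhcgr and Hsd3b6 were at 0 in all 4 sorted libraries, whereas Nr5a1, the highest of the list, had 243 and 461 counts in WT and 251 and 223 in dKO, and Star had 158 and 7 in WT and 130 and 120 in dKO. Peritubular myoid genes were at 1.43% in dKO and 0.803% in WT, led in dKO by Myh11 with 98 and 0 counts. In CPM the myoid sums of sorted cells overlapped, 7.43 to 10.3 in dKO and 5.46 to 14 in WT. In whole testis they were 438 to 928 and 1150 to 1310. Endothelial genes were at 4.96% in dKO and 4.47% in WT, led by Flt1 with 117 and 80 counts in dKO and 199 and 159 in WT, and with Emcn at 0. Sertoli genes were at 12.4% in dKO and 6.5% in WT, led in dKO by Aard with 996 and 1400 counts. In CPM the Sertoli sum was 250 to 370 in sorted dKO and 225 to 229 in sorted WT cells, and 2450 to 2530 and 3280 to 3720 in whole testis. Erythroid genes were at 3.87% in dKO and 1.19% in WT, led by the globin gene Hbb-bs with 652 and 207 counts in dKO and 99 and 183 in WT.

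The description met by 8 of the 10 members, at most 1 count in each sorted WT and at least 10 in each sorted dKO library, was also met by genes of other cell types, as by 5.93% of all genes. It was met by 3 of 8 endothelial genes, Cdh5, Tek and Esam, by 2 of 7 myoid genes, Cnn1 and Des, and by 1 of 8 Leydig genes, Hsd3b1 with 25 and 72 counts in dKO. It was met by 1 of 6 erythroid and 1 of 10 T and NK cell genes, and by 0 of 10 Sertoli, 0 of 14 germ cell, 0 of 9 neutrophil, 0 of 6 mast cell and 0 of 6 B cell genes. Genes named here were picked after their values were seen.

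Lymphoid and granulocyte genes were low in both kinds of RNA. T and NK cell genes summed to 7.5 to 11.3 CPM in sorted dKO and 3.81 to 10.8 in sorted WT cells, which is 59.1% and 89.5% of whole testis. Of the T and NK cell list 5 of 10 genes were at 0 in all sorted libraries, Cd3d, Cd3g, Nkg7, Gzma and Klrb1c, and Lck, the highest of them in dKO, had 79 and 61 counts in dKO and 69 and 0 in WT. B cell genes were at 5.99% in dKO and at 212% in WT, where 1 library held 6.9 CPM and the other 0, with Cd79b, Ms4a1, Pax5 and Blk at 0 throughout. Neutrophil genes summed to 1.22 and 2.77 CPM in dKO and 0 and 2.25 in WT, or 25.6% and 72.7% of whole testis, led in dKO by S100a9 with 44 and 4 counts, with Ly6g, Mpo, Elane and Camp at 0. Mast cell genes had no count in sorted dKO cells and were at 12.1% in WT, with Cpa3, Mcpt4, Cma1, Ms4a2 and Fcer1a at 0 throughout. Germ cell genes summed to 154% of whole testis in dKO and 123% in WT, and Uchl1 was the highest of them on the mean of the sorted dKO libraries. Whether macrophages or their RNA were carried through the sort was not tested.

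**Figure D3:**
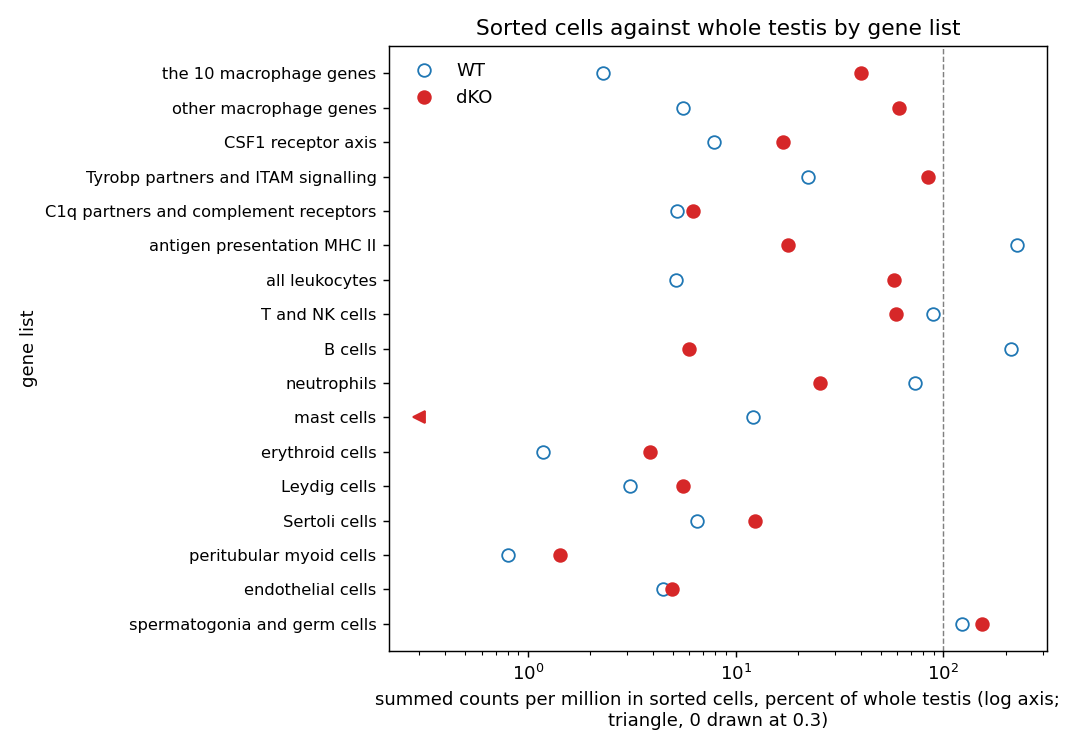
Summed CPM of each gene list in sorted cells as a percentage of whole testis of the same genotype (horizontal axis, log scale, dashed line at 100%), WT open and dKO filled. The 10 macrophage genes stand at 2.31% in WT and 40.2% in dKO, other macrophage genes at 5.56% and 61%, and Leydig, myoid and endothelial genes below 6% in both. The CSF1 receptor axis stands at 7.89% in WT and 17% in dKO, Sertoli genes at 6.5% and 12.4%, and complement partners at 5.24% and 6.22%. MHC class II genes go the other way, at 225% in WT and 17.8% in dKO.

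A list of 25 other macrophage genes gave a mixed picture in sorted cells. It was written with the earlier results known. Of these, 10 had at most 1 count in each WT and at least 10 in each dKO library, against 5.93% of all genes, or 12.7% without WT replicate 1, and 7 were at 0 in all 4 sorted libraries, as were 871 of the 16554 genes. The 7 included Spi1, the gene of PU.1, the integrin Itgam (CD11b) and the scavenger receptor Cd163. Cd163 and Vsig4, both of the 7, were not among the 16554 genes, having too few counts in whole testis to be tested. Of the 25, 13 had enough counts to be fitted in sorted cells. Ranked by that fit, the highest of the 13 was Fcer1g, the common chain of Fc receptors, with 0 and 0 counts in WT and 127 and 242 in dKO. C3ar1, a complement receptor in the middle of the 13, had 0 and 0 in WT and 90 and 26 in dKO. Siglec1 (CD169) was the lowest of them, with 155 and 17 in WT and 12 and 35 in dKO. The list summed to 1.63 to 9.54 CPM in sorted WT cells and 59 to 62.5 CPM in sorted dKO cells.

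Partners of the members were graded in the same way. Of the 12 genes of Tyrobp partners and ITAM signalling, 4 were absent from sorted WT and present in sorted dKO cells, Fcer1g, Trem2, the kinase gene Syk and Vav1, the last with 17 and 15 counts in dKO. The lowest of the 7 fitted, the phosphatase gene Inpp5d, had 157 and 103 counts in WT and 20 and 31 in dKO. Of the 11 genes of the CSF1 receptor axis 2 met the description, among them Cebpa with 54 and 55 counts in dKO. Among the 6 fitted, the lowest, Csf2ra, had 179 and 69 in WT and 129 and 41 in dKO, and the lower of the middle pair, Runx1, had 0 and 22 in WT and 49 and 27 in dKO. Of the ligand genes, which were not fitted, Csf1 had 0 and 0 in WT and 5 and 1 in dKO, and Il34 had 39 and 0 in WT and 5 and 0 in dKO.

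Among complement partners of C1q, 2 of 12 met it, C3ar1 and the protease gene C1s1, which had 0 and 0 counts in WT and 90 and 108 in dKO. Cfp had 38 and 0 counts in WT and 52 and 48 in dKO, and C2 had 9 and 362 in WT and 40 and 36 in dKO. Of the MHC class II list 0 of 7 met it. H2-Ab1, a class II chain of antigen-presenting cells, had 904 and 1059 counts in sorted WT cells and 40 and 5 in sorted dKO cells, while its partner Cd74 had at most 1, and H2-DMa had 133 and 22 in WT and 36 and 58 in dKO. Of 10 genes of all leukocytes 6 met it, among them Lcp1 with 0 and 0 in WT and 131 and 82 in dKO and Rac2 with 0 and 0 in WT and 32 and 46 in dKO. Coro1a, with 106 and 0 in WT and 210 and 243 in dKO, did not.

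The genes whose profile over the 10 RNA libraries was most like the mean profile of the members were Slc37a2, Lmf1, Plk3, Ephx1, Arhgef5, Bcan, Fahd1, Rasal1, Mmp23 and Slc25a12, of 19598 compared. Pearson's r on log2 CPM ran from 0.996 to 0.998. None of the 10 is in any of the lists used here. Among the members r ran from 0.343 for Cd14 and 0.788 for Adgre1 to 0.994 for Csf1r. The points share 2 protocols and their depths: the members' mean profile was lowest in sorted WT cells, higher in sorted dKO cells and highest in whole testis, and these r values include those steps.

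The genotype comparison in whole testis is not part of the rule for the members, although they were chosen with earlier results of these data known. It was tested over all 16554 genes. Fewer macrophages and less of a transcript per macrophage cannot be told apart in such RNA. Cd14 was the one member called higher in dKO testis, at an adjusted p below 0.05 and at least 2-fold, as were 5.32% of all genes. By edgeR and by DESeq2, 0 members were called lower, as were 1.78% of all genes in edgeR. At any fold, 3 of 10 members passed an adjusted p of 0.05, Cd14, Lyz2 and Mrc1, against 19.1% of all genes. The median log2 fold change of the 10 was 0.32, beside 0.02 over all genes, and 8 of the 10 were above 0. The labels do not say whether libraries came from separate animals, so p-values measure the spread between these libraries.

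Cd14 lies at chr18:36725067-36726798 on the minus strand. It stood at 1, 1.23 and 1.01 normalised CPM in WT testes and at 2.99, 3.27 and 5.14 in dKO testes. Every dKO testis was above every WT testis. The log2 fold change was 1.81 ± 0.32 (SE, edgeR adjusted p = 0.0059), and leaving out single libraries gave 1.52 to 1.94. Cd14 was the member of lowest level in WT testis, with 15 to 20 counts per library.

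Lyz2 (chr10:117277331-117282321, minus strand) stood at 24, 28 and 27.9 CPM in WT and at 44.9, 52.2 and 45.2 in dKO. All dKO testes again lay above all WT testes, at a log2 fold change of 0.83 ± 0.12 (adjusted p = 0.003), short of 2-fold. Mrc1 (chr2:14229392-14332057, plus strand) stood at 25, 25.7 and 27.5 CPM in WT and at 19.5, 18.1 and 16.1 in dKO. All dKO testes lay below all WT testes, at a log2 fold change of -0.54 ± 0.13 (adjusted p = 0.018), also short of 2-fold. Leaving out single libraries gave adjusted p from 0.0046 to 0.0715, above 0.05 without any one of the WT libraries.

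Adgre1 (chr17:57358691-57483527, plus strand) stood at 5.22, 5.39 and 6.66 CPM in WT and 4.89, 4.7 and 3.3 in dKO. The groups did not overlap, yet the log2 fold change of -0.43 ± 0.23 did not pass (adjusted p = 0.227), and it was -0.27 without dKO replicate 3. Tyrobp (chr7:30413760-30417585, plus strand) stood at 4.21, 3.37 and 3.83 CPM in WT and 4.74, 7.25 and 4.44 in dKO, at 0.52 ± 0.25 (adjusted p = 0.18). The dKO and WT testes did not overlap for 5 of the 10 members, as for 40.8% of all genes.

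The C1q chains, Csf1r and Cd68 overlapped between genotypes. C1qb stood at 15.3, 10.9 and 15 CPM in WT and 14.4, 27.2 and 16.5 in dKO, a log2 fold change of 0.49 ± 0.25 (adjusted p = 0.196). C1qa stood at 12.4, 9.87 and 14.5 CPM in WT and 13.4, 21.8 and 12.2 in dKO, at 0.36 ± 0.24 (adjusted p = 0.326). For C1qc the levels were 14.6, 11.1 and 16.2 in WT and 13.3, 22 and 14.4 in dKO, at 0.24 ± 0.22 (adjusted p = 0.478). dKO replicate 2 was the highest of the 6 testes for 7 of the 10 members, the 3 chains, Tyrobp, Csf1r, Cd68 and Lyz2. Without it the log2 fold change was 0.17 for C1qb, 0.06 for C1qa, -0.01 for C1qc, 0.27 for Tyrobp, 0.16 for Csf1r, 0.06 for Cd68 and 0.76 for Lyz2, and the median of the members was 0.11. That testis also had the most Hbb-bs, 10641 counts against 4151 and 4705 in the other dKO testes, and the part of blood in its values was not tested. Csf1r (chr18:61100598-61132149, plus strand) had 19.1, 24.2 and 30.1 CPM in WT and 27.1, 33.7 and 27.9 in dKO, at 0.27 ± 0.18 (adjusted p = 0.319). Cd68 (chr11:69664213-69666153, minus strand) had 5.42, 4.23 and 5.91 in WT and 5.69, 6.21 and 5.14 in dKO, at 0.13 ± 0.21 (adjusted p = 0.699), the smallest difference among the members. With single libraries left out, Csf1r ran from 0.10 without WT replicate 1 to 0.43 without WT replicate 3, and Cd68 from -0.02 without WT replicate 2 to 0.22 without WT replicate 3. Without WT replicate 2, C1qb was at 0.33, C1qa at 0.21 and C1qc at 0.08.

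**Figure D4:**
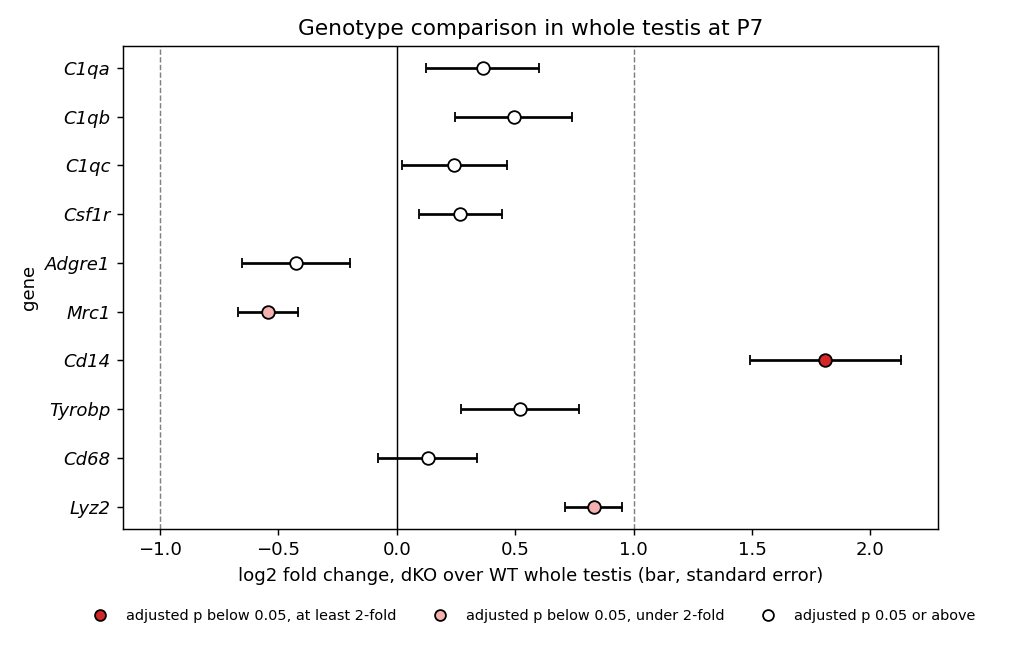
Log2 fold change of each gene between dKO and WT whole testis (horizontal axis, bars are standard errors, dashed lines at 2-fold). Cd14 at 1.81 is the one gene past both thresholds, Lyz2 at 0.83 and Mrc1 at -0.54 pass on adjusted p alone, and the other 7 do not pass.

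The other macrophage and pathway lists were counted in the same whole-testis test, and genes named here for their calls were picked after their values were seen. Of 23 other macrophage genes tested, 3 were called higher, Lgals3, C5ar1 and Ms4a7, and 2 lower, Cx3cr1 and F13a1, against 5.32% and 1.78% of all genes. Their median log2 fold change was 0.25, beside 0.02 over all genes. Lgals3, the galectin of activated macrophages, gave 2.36 (adjusted p = 0.00256). The chemokine receptor Cx3cr1 gave -1.18 (adjusted p = 0.0291), and F13a1, a transglutaminase of resident macrophages, gave -1.3 (adjusted p = 0.00254). The Fc receptor gene Fcgr3 gave 0.99 (adjusted p = 0.0258), short of 2-fold.

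Of 10 complement genes tested 3 were called higher, C3, C4b and C5ar1, and 0 lower, against the same 5.32% and 1.78%, with a median of 0.66 beside 0.02. C3, the central component of complement, gave 2.13 (adjusted p = 0.0128), with 116, 99 and 190 counts in WT testes and 313, 857 and 353 in dKO testes. Of 11 genes of the CSF1 receptor axis 2 were called higher, Csf2rb and Runx1, and 0 lower, read against those shares. Its ligand genes Csf1 (-0.15, adjusted p = 0.484) and Il34 (-0.03, adjusted p = 0.963) did not pass. By edgeR and by DESeq2, 0 of the 9 genes of the Tyrobp list, 0 of the 7 of MHC class II and 0 of the 10 of all leukocytes were called. At an unadjusted p under 0.05 edgeR gave 0, 1 and 1 in those lists, the last being Ptprc, the pan-leukocyte CD45, at 0.82 (adjusted p = 0.0357).

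Genes of some other cell types were also called in whole testis. Of the tested genes, edgeR called 3 of 3 neutrophil genes and 2 of 6 T and NK cell genes higher (5.32% of all genes), and 4 of 4 mast cell genes, 4 of 7 Leydig genes, 4 of 7 myoid genes and 1 of 9 Sertoli genes lower (1.78%). DESeq2 called 2 neutrophil, 3 mast cell and 3 myoid genes and gave the same counts for the other 3 lists. By either tool 0 of 8 endothelial, 0 of 5 erythroid and 0 of 14 germ cell genes were called. At any fold in edgeR, 3, 0 and 2 of them passed an adjusted p of 0.05, against 19.1% of all genes. At an unadjusted p under 0.05 edgeR gave 4, 0 and 5. Leydig genes summed to 706 to 827 CPM in WT and 424 to 492 in dKO, and neutrophil genes to 0.921 to 1.91 and 5.4 to 12.3. The part of these shifts in the members' values was not tested.

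At the promoters, a member was counted as marked when a peak summit lay within 3000 bp of one of its transcript starts in at least 2 replicate lists. Peaks were called in each library by the authors. H3K4me3 marks the starts of active genes, and in WT cells at P7 it marked 1 of 10 members, Cd14, against 60.7% of 21951 protein-coding genes. At P14 it marked Cd14 alone again, against 63.1%. By comparison it marked 12 of 14 germ cell genes at P7, 8 of 10 Sertoli genes, 6 of 12 Tyrobp partners, 3 of 7 MHC class II genes, 3 of 8 endothelial genes, 2 of 7 myoid genes, 2 of 25 other macrophage genes, 1 of 12 complement partners, 1 of 8 Leydig genes and 1 of 10 leukocyte genes. Of the CSF1 receptor axis it marked 7 of 11, among them Cebpa, Cebpb, Maf and Runx1.

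The Cd14 summits of H3K4me3 lay 822 to 1013 bp downstream of its start in the 4 lists, within the gene, with a fold enrichment of 5.1 and 4.78 at P7 and 5.02 and 6.55 at P14. The next nearest was Cd68, whose nearest summit lay 3592 to 3611 bp away, just outside the window. Nearest H3K4me3 summits were at 8046 to 8305 bp for Tyrobp, at 17163 to 62658 bp for the C1q chains, and at 34489 bp or more for Lyz2, Csf1r, Adgre1 and Mrc1. Mrc1 was the farthest at 155006 to 155419 bp.

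**Figure D5:**
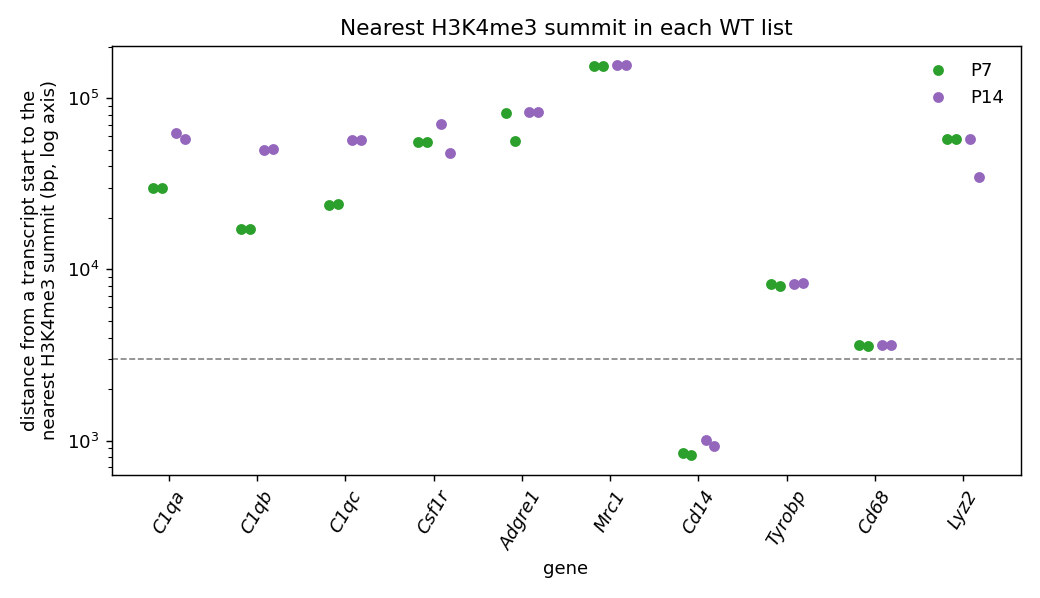
Distance from the nearest transcript start of each gene to the nearest H3K4me3 summit (vertical axis, bp, log scale) in each WT list at P7 and P14, with a dashed line at 3000 bp. Cd14 lies at 822 to 1013 bp in the 4 lists, Cd68 at 3592 to 3611 bp and the other 8 genes at 8046 bp or more.

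H3K27ac, a mark of active promoters and enhancers, marked 0 members at P7 (31% of protein-coding genes) and Cd14 at P14 (48.9%). H4R3me2a, a product of Prmt1, marked 0 at P7 (15.3%) and Cd14 and Lyz2 at P14 (49%). The Lyz2 summits lay 2364 and 2646 bp upstream. H3R2me2a marked 0 members at P7 (11%) and Cd14 and C1qa at P14 (51.3%). H4R3me1 marked C1qa at P7 (10.8%) and 0 at P14 (29.9%).

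H3R8me2a marked 0 members at P7 (9.71%) and at P14 (33%). H4R3me2s, the symmetric form, marked 0 in WT at P7 (17.8%), 0 in dKO at P7 (9.82%) and 0 at P14 (34.2%). No member was thus marked by H4R3me2s in at least 2 lists of the dKO cells, which here were not sorted on EGFP. Over the 15 combinations of age, mark and genotype, Cd14 was marked in 5, C1qa in 2 and Lyz2 in 1. The other 7 members were marked in none. Within 3000 bp, the strongest of the nearest peaks of members other than Cd14 was in a single list: H4R3me2s at P7 in WT replicate 1 had a summit 1042 bp upstream of Cd68 with a fold enrichment of 8.45 and a −log10 q of 14.1, and replicate 2 had none within the window. For C1qa the summits at P7 lay 413 and 961 bp downstream of the start, with a −log10 q of 1.26 and 0.478, and neither passed q at most 0.01.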

How the data were processed

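Per the labels and the study's methods, reads were trimmed with fastp 0.23.2 and aligned to mm10, and the authors deposited RSEM gene tables whose expected count and TPM columns were used here. Counts were rounded. CUT&Tag peaks were called per library with MACS2 2.1.0, and the deposited lists give fold enrichment, a ratio to background, and −log10 q, with neither recomputed. Gene symbols came from GENCODE vM21 for 55141 of 55401 identifiers.

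Members and lists were chosen with earlier results of these data known. Whole testis was tested with edgeR 4.0.16 (R 4.3.3; filterByExpr, TMM, quasi-likelihood, no block, Benjamini-Hochberg over all genes; called at an adjusted p below 0.05 and at least 2-fold), with DESeq2 1.42.0 as an alternative. The scripts were tested on simulated data. Totals were 12396345 to 16598249 counts per whole testis and 15610392 to 18547103 per sorted library. Normalised CPM used TMM factors, other CPM the library total. Sorted WT and dKO libraries were fitted the same way for counts over all genes, but no test of a member is given there or between sorted and whole RNA, because members were chosen on them. Levels in sorted and whole RNA come from different protocols, normalised separately.

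Named genes were the 10 members, Prmt1, Lyz1, from each macrophage or pathway list the genes with the highest, median and lowest fitted difference in sorted cells, from each other list the gene highest in sorted dKO cells and those at 0, and the 10 genes most like the members (log2 CPM, prior count 2). Ranks cover fitted genes. Other genes were named after their values were seen. A few genes of these lists are not reported here. Alternatives were other normalization, filtering, tool, block, libraries left out, TPM, and peak windows of 1000 bp, any overlap, any list, or q at most 0.01. Those leaving out Cd14 and on the pattern in sorted cells were added after seeing the data.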

Additional observations from a re-analysis of the deposited data

Results flagged for a closer look

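Mrc1 moved in opposite directions in the 2 RNA assays. In whole testis every dKO library lay below every WT library (log2 fold change -0.54, edgeR adjusted p = 0.018), and in sorted cells both dKO libraries, at 12 and 38 counts, lay above the WT libraries at 0. The difference between the assays was not tested, and Mrc1 was among the genes chosen on the sorted libraries. No group of samples held more than 3, too few for the test of a library that stands apart within its group.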

How the results depend on the processing

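Of 100 fold changes of members in whole testis under alternatives, 98 kept their direction and their side of the call. Those that reversed were Cd68 without WT replicate 2 (-0.0156, range with each library left out -0.0156 to 0.218) and C1qc without dKO replicate 2 (-0.0115, range -0.0115 to 0.356), neither called in any fit. The median of the members ran from 0.11 to 0.46 with each library left out. Genes called in whole testis rose from 1175 to 2152 with no filter on low counts, where more genes were tested, and ran from 898 to 1449 with each library left out. In sorted cells DESeq2 called 1879 genes where edgeR called 0, and edgeR called 0 to 7436 with each library left out, the cause not being tested. Replicate numbers did not pair the samples (r of same-numbered deviations 0.08, -0.22 and -0.12 in whole testis and 0.02 in sorted cells). With a replicate block 950 genes were called in whole testis and 0 in sorted cells, the median of the members was 0.31, and Mrc1 had an adjusted p of 0.0683 against 0.018 without the block.

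Peaks in any list marked more members than peaks in at least 2 for most combinations. H3R2me2a at P14 stayed at 2 (68.5% of protein-coding genes), and H3K4me3 stayed at 1 at P7 (63.9%) and at P14 (67%). At P7 the counts in any list were 2 for H4R3me2a (40% of protein-coding genes), 1 for H3R2me2a (37.5%), 1 for H3R8me2a (32.9%) and 4 for H4R3me1 (36.8%). They were 1 for H3K27ac (47.8%), 3 for H4R3me2s in WT (49%) and 4 in dKO (40.7%). At P14 they were 5 for H4R3me2a (66.5%), 3 for H3R8me2a (57.4%), 3 for H4R3me1 (53.8%), 4 for H3K27ac (62.5%) and 2 for H4R3me2s (57%). With any overlap, H3K4me3 marked 2 at P7 (61%) and 2 at P14 (63.5%) and H3K27ac 2 at P14 (49.3%), Cd68 being added each time. With a window of 1000 bp, H4R3me2a marked 1 at P14 (41.1%), and H3K27ac (45.2%) and H3K4me3 (60.7%) marked 0 at P14. At q at most 0.01, H4R3me1 at P7 (0.77%) and H4R3me2a (19.4%) and H3R2me2a (28.3%) at P14 fell to 0. With 2 sorted libraries per genotype and under 400 counts of any member in each, a level near 3 counts could not be told from absence. Replicates also differed by far more than that. In sorted WT cells Cd14 had 111 and 0 counts and Zbtb16 had 1107 and 29, so a 0 does not hold a level below 3 counts.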
